A study of Mus musculus with 47 samples.

Results

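The osteoclast-like program of macrophages is described here by 9 genes, Gpnmb, Spp1, Dcstamp, Ocstamp, Nfatc1, Mitf, Tnfrsf11a, Oscar and Itgb3, out of the 51912 genes counted in each table of bone marrow-derived macrophages (BMDMs). The members were chosen by gene symbol, from what is known of these genes in osteoclasts, by a rule that uses no measured value, though with earlier results of these data known. RNA-seq was available for 12 libraries, 6 from BMDMs and 6 from the Raw264.7 mouse macrophage line, and each condition had 1 library. The study asked how loss or mutation of ZMYND8, a chromatin reader protein, and of p65, the NF-κB subunit encoded by Rela, alters macrophage transcription.

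BMDMs were grown with 20 ng/ml M-CSF from mice that all carried floxed Zmynd8. WT mice were littermates without Cre, and in Zmynd8 cKO mice Cre was expressed from Lyz2, a gene of macrophages and neutrophils. The cells were left untreated (NT), or received LPS, the endotoxin of Gram-negative bacteria, at 100 ng/ml, or IL-4, which drives alternative activation, at 20 ng/ml, in each case for 6 h. Each library held a mixture of 3 biological replicates per the Methods, which hides the spread between animals, and the age of the mice that gave these cells is not given in the sources used here. The Raw264.7 libraries came from Zmynd8 KO cells with WT Zmynd8 put back (WT Zmynd8), with the D/E-A mutant put back, in which acidic residues of a disordered region are alanines (D/E-A), or with neither (Zmynd8 KO), and from p65 KO cells with WT p65, with p65 carrying a lysine-to-arginine change (K122R), or with neither (p65 KO). The p65 lines were treated with LPS. LPS is given in the Results for WT Zmynd8 and D/E-A, the treatment of Zmynd8 KO is not given in the sources used here, and neither dose nor time was given for any Raw264.7 library. Whether each line was 1 clone is not given in the sources used here, and the column taken as WT p65 is headed only WT with LPS.

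Osteoclasts are the bone-resorbing cells that form when macrophage precursors fuse. M-CSF keeps the precursors alive, and RANK ligand binds the receptor RANK on their surface, which switches on NF-κB, AP-1 and then NFATc1, the master transcription factor of the lineage. NFATc1 acts with MITF and PU.1 on the genes for fusion, attachment to bone and acid secretion, and immune receptors with ITAM adaptors, such as OSCAR, add the calcium signal that NFATc1 needs. Macrophages that never become osteoclasts use several of these genes, among them Gpnmb and Spp1.

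By role, Tnfrsf11a encodes RANK and Oscar encodes an ITAM-linked receptor. Nfatc1 and Mitf encode transcription factors. Dcstamp and Ocstamp encode related membrane proteins that are needed for fusion, and Itgb3 encodes the integrin β3 chain that pairs with αv to attach osteoclasts to bone. Gpnmb encodes a glycoprotein of lysosomes and the cell surface, and Spp1 encodes osteopontin, a secreted ligand of integrin αvβ3. Together they give a receptor layer, a transcription factor layer, a fusion and attachment layer, and a pair of abundant products.

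In mm10 coordinates, as deposited, 8 of the genes were Gpnmb at chr6:49036518-49058182, Spp1 at chr5:104435111-104441053, Dcstamp at chr15:39745930-39760938, Ocstamp at chr2:165395450-165400394, Mitf at chr6:97807002-98021360, Tnfrsf11a at chr1:105780723-105847981, Oscar at chr7:3609813-3616157 and Itgb3 at chr11:104608000-104670476. Exons of 8 of the 9 members overlapped no exon of another gene in GENCODE vM21. The exception was Spp1, which shares 309 exonic bases on the same strand with the unclassified model Gm42793, itself counted at between 10 and 67 reads per BMDM library.

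Promoter sequences, from 250 bases before to 50 bases after a start site (RefSeq, GRCm38.p6), were found for 5 members, with 8 start sites between them. Those of Gpnmb and Spp1, the most abundant members in BMDMs, and of Oscar, which had at most 3 reads in every library that lists it, are printed in the direction of transcription to set the extremes of expression side by side. Capitals mark matches, on either strand, to letters bound by factors of the osteoclast pathway: TGANTCA for AP-1, CACGTG or CATGTG for MITF-type E-boxes, TGGAAA for NFAT and GAGGAA for PU.1.
Gpnmb, chr6:49036268-49036567, plus strand: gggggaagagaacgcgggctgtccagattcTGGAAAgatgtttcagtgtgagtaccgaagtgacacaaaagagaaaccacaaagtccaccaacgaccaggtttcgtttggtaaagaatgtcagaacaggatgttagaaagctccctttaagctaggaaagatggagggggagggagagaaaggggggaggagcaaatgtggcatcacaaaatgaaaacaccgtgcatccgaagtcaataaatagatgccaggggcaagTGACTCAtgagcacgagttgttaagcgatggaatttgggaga
Spp1, chr5:104434861-104435160, plus strand: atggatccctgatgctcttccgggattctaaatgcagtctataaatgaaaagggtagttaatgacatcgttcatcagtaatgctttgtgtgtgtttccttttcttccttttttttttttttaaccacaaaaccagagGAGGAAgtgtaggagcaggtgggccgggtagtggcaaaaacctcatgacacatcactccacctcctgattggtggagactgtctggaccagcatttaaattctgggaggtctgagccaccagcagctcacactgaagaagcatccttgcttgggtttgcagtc
Oscar, chr7:3616108-3616407, minus strand: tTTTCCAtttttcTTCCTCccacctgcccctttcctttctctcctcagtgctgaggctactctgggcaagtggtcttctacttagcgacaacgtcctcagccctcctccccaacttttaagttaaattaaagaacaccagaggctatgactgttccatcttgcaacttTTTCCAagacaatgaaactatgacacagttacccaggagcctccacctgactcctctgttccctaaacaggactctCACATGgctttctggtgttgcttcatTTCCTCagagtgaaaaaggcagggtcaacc

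The Gpnmb promoter holds an NFAT match that begins 220 bases before the start site and an AP-1 match that begins 8 bases after it. The Spp1 promoter printed holds 1 match, to PU.1, that begins 113 bases before the start, and a second Spp1 start site, whose sequence is not printed (chr5:104435942-104436241), has an NFAT match 203 bases before it. The Oscar promoter holds 5 matches, of which 2 are to NFAT, 2 to PU.1 and 1 to an E-box 6 bases before the start. Thus the member with the fewest reads holds the most matches of the 3. No 2 marked matches overlap. Of all 32851 promoters of this length, 7.81% hold the AP-1 letters, 20.4% an E-box, 21.4% the NFAT letters and 28.3% the PU.1 letters, so the AP-1 letters are the least common of these, and a match is a description of the letters and not of a bound site.

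Read totals ranged from 22597408 to 28386612 counts in the BMDM libraries and from 15127110 to 21042039 reads in the Raw264.7 libraries. The 6 macrophage markers (such as Adgre1 and Csf1r) were detected in all 12 libraries. Zmynd8 was at 87.1, 79.0 and 128 CPM (counts scaled to the library total) in the WT libraries and at 81.5, 86.8 and 151 CPM in those labelled cKO, for NT, LPS and IL-4. Counts over the whole gene do not separate the deleted exons from the rest, so they do not check the label, and libraries are named here by their labels. Lyz2, from which Cre was expressed, was at 10950, 6902 and 8941 CPM in WT and at 7202, 2892 and 5245 CPM in cKO, in the same order. This difference was not tested. The 8 neutrophil markers (such as Ngp and Ltf) summed to between 2.33 and 4.22 CPM in the NT and LPS libraries but to 382 and 514 CPM in the IL-4 libraries. The titles give the IL-4 libraries sample numbers apart from those of the other 4, and IL-4 treatment and this set cannot be told apart. Xist was at 740, 246 and 1108 CPM in WT and at 323, 429 and 1057 CPM in cKO, for NT, LPS and IL-4, so the BMDM libraries compared also differ in it, and its part in the results was not tested. Among the Raw264.7 libraries, the neutrophil markers summed to between 4479 and 10556 RPM (reads scaled to the reads on genes that all tables list) in the 3 Zmynd8 lines, where none was at 0, and to at most 0.325 in the 3 p65 lines, where 3 of the 8 were listed. The 3 Zmynd8 lines also held between 7109 and 8467 Xist reads, against at most 3 in the p65 lines, although Raw264.7 is a male line. The B and T cell markers, of which 6 were listed in each Zmynd8 line and 3 or 4 in each p65 line, summed to between 90.3 and 122.7 RPM in the Zmynd8 lines and to at most 0.306 RPM in the p65 lines, and the dendritic cell markers to between 88.0 and 159 RPM and between 29.1 and 39.7 RPM. These values go against the labelled cell line for the 3 Zmynd8 libraries, which are named here by their labels. The 2 sets are therefore described separately.

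**Figure D1:**
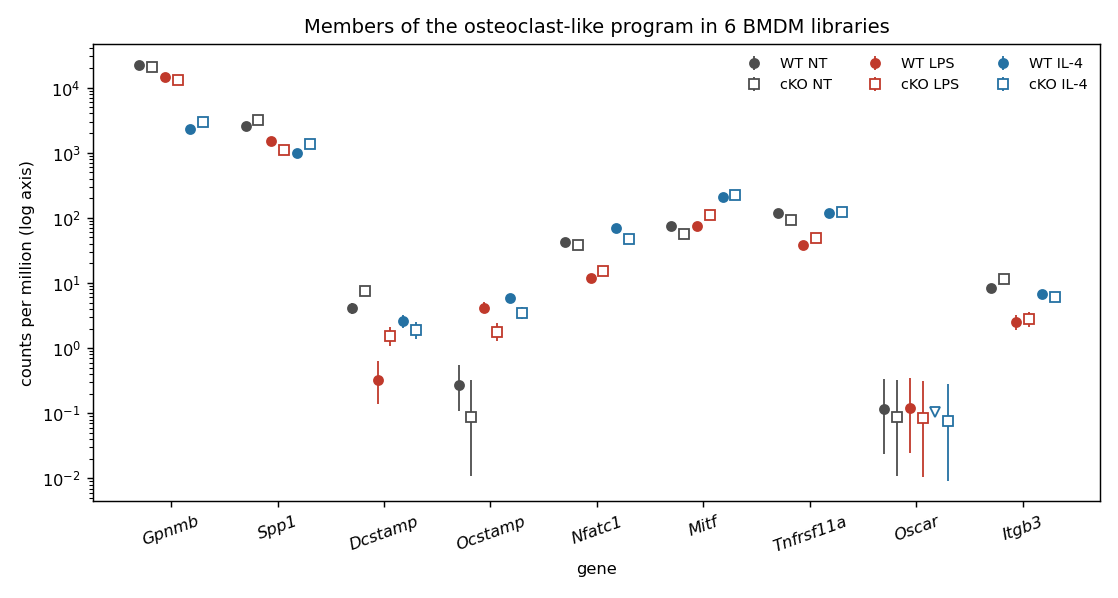
CPM (log axis) of the 9 members in the 6 BMDM libraries, 1 point a library, circles for WT and squares for cKO, with exact 95% Poisson limits that cover counting error only; the open triangle marks the level of 3 counts for a library with 0. Gpnmb lies between 2299 and 22288 CPM with the IL-4 libraries lowest, Dcstamp and Ocstamp are high in different libraries, and Oscar never exceeds 3 counts.

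Gpnmb and Spp1 carried nearly all reads of the program in BMDMs. Compared per length, as the deposited TPM (reads scaled to transcript length and library size), Gpnmb was at 11244 and Spp1 at 3082 in WT NT, whereas RANK (Tnfrsf11a) was at 42.8, Mitf at 25.9, Nfatc1 at 14.2, Dcstamp at 3.28, Itgb3 at 2.11, Ocstamp at 0.11 and Oscar at 0.10 TPM. Gpnmb ranked 7 of 17066 detected genes in WT NT by TPM, and Spp1 ranked 33. The 9 members together took 2.51% of the counts in WT NT and 0.372% in WT IL-4, and Gpnmb made up 88.9% and 61.8% of these. The program in these cells was thus a pair of abundant products over transcription factors and RANK of intermediate level and fusion genes of low level.

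The widest shift among the abundant members was that of Gpnmb. Its level was 22288 CPM in WT NT, 20679 in cKO NT, 14571 in WT LPS, 12928 in cKO LPS, 2935 in cKO IL-4 and 2299 in WT IL-4. The order ran NT, LPS, IL-4, with both genotypes of a condition next to each other and all neighbours apart by more than counting error. Spp1 was at 3172 CPM in cKO NT, 2539 in WT NT, 1521 in WT LPS, 1350 in cKO IL-4, 1108 in cKO LPS and 1006 in WT IL-4. By library totals both products were thus highest in the untreated libraries, but relative to the median gene WT LPS lay 1.07-fold above WT NT for Gpnmb and at 0.977 of it for Spp1, neither of which was called. By TPM, Gpnmb exceeded Spp1 by 3.65-fold in WT NT and 4.11-fold in WT LPS, but the levels were close in the IL-4 libraries, at ratios of 0.996 in WT and 0.943 in cKO.

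RANK and NFATc1, receptor and master factor of the pathway, had their lowest levels in the LPS libraries. Tnfrsf11a was at 121, 120 and 117 CPM in cKO IL-4, WT NT and WT IL-4, which did not differ beyond counting error from neighbour to neighbour, at 91.3 in cKO NT, and at 48.4 and 38.6 in cKO LPS and WT LPS. Nfatc1, at chr18:80606205-80713071, was at 69.7 CPM in WT IL-4, 48.0 in cKO IL-4, 42.7 in WT NT, 38.3 in cKO NT, 15.3 in cKO LPS and 12.1 in WT LPS. By library totals, no NT or IL-4 library overlapped the LPS range for either gene. By those totals 61.1% of all genes in WT and 58.9% in cKO were called lower with LPS. Relative to the median gene, Tnfrsf11a was 1.19-fold lower in cKO LPS than in cKO NT, which was not called. How many of all genes show such a gap was not counted. Mitf had another order, with 225 CPM in cKO IL-4, 212 in WT IL-4, 112 in cKO LPS, 74.7 in WT NT, 73.9 in WT LPS and 55.9 in cKO NT. Both IL-4 libraries held the most Mitf, and WT NT and WT LPS did not differ beyond counting error by totals, though relative to the median gene Mitf was called 1.62-fold higher in WT LPS (1.52 to 1.72).

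The related fusion genes, Dcstamp and Ocstamp, were high in different libraries. Dcstamp had 107 counts in WT NT and 170 in cKO NT, but 8 in WT LPS, 36 in cKO LPS, 74 in WT IL-4 and 49 in cKO IL-4. Ocstamp had 7 and 2 counts in WT NT and cKO NT, but 104 in WT LPS, 42 in cKO LPS, 165 in WT IL-4 and 90 in cKO IL-4. The NT libraries thus held the most Dcstamp and the least Ocstamp. Per length, Dcstamp was at 3.28 and Ocstamp at 0.11 TPM in WT NT, and at 0.25 and 1.62 TPM in WT LPS, so that the order of the pair was turned. In cKO LPS it was not, at 1.24 and 0.74 TPM. For Dcstamp, WT IL-4 and cKO IL-4 did not differ beyond counting error, nor did cKO IL-4 and cKO LPS, and for Ocstamp neither did WT LPS and cKO IL-4 nor the NT pair. Itgb3 had 220 counts in WT NT, 263 in cKO NT, 62 in WT LPS, 65 in cKO LPS, 190 in WT IL-4 and 160 in cKO IL-4, so that, as for Dcstamp, the NT libraries held the most.

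Oscar had at most 3 counts in any BMDM library. It had 3 counts in WT NT, 2 in cKO NT, 3 in WT LPS, 2 in cKO LPS, 0 in WT IL-4 and 2 in cKO IL-4, and the 0 allows up to 0.106 CPM. No direction between libraries can be read at this depth. The receptor's mRNA was therefore near the floor in cells that held RANK at 38.6 CPM or more.

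Across the 6 BMDM libraries, members moved with each other in part. Pearson's r of log2(CPM + 1) was 0.97 between Nfatc1 and Tnfrsf11a, 0.93 between Dcstamp and Itgb3 and 0.72 between Gpnmb and Spp1, but -0.96 between Gpnmb and Mitf and -0.74 between Dcstamp and Ocstamp. These are descriptions over 6 libraries that fall into 3 conditions and share their library totals. Among the 8225 genes with a mean of at least 10 CPM, those most like Gpnmb were Itgb7 (r = 0.998), Micu2 (0.997) and Anxa7 (0.997), and 11 had r above 0.99. For Tnfrsf11a, 186 genes had r above 0.99, led by Ube3c, Hnrnpu and Nup155, while for Spp1 only Dnajc30 did, followed by Tmem9b (0.988) and Cops4 (0.984). Those most like Mitf were Skil, Ggnbp2 and Adam17, those most like Nfatc1 were Cd99l2, Cbx1 and Gm45606, and those most like Itgb3 were Gpx1, Slc35e4 and Cnih1, all with r above 0.99.

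After LPS treatment, the receptor, the master factor and the attachment gene fell, Dcstamp fell and Ocstamp rose, in both genotypes' libraries, with Tnfrsf11a in the cKO library depending on the scaling. Dendritic cell markers moved with this comparison, the 6 of them summing to 1.64 CPM in WT NT and 0.797 in cKO NT but to 15.7 in WT LPS and 20.9 in cKO LPS, with Flt3 at 0 in all 4. Of 6 macrophage markers, 3 were higher and 1 lower in WT relative to the median gene, and 4 and 2 in cKO. By totals 2 were higher and 3 lower in WT, and 4 and 2 in cKO. The osteoblast and stromal markers went from 5.04 to 1.61 CPM in WT and from 5.66 to 2.60 CPM in cKO. The part of all these markers in the result was not tested. Scaled by library totals, the median of all genes moved by -0.58 in WT and -0.55 in cKO on the log2 scale between NT and LPS, so changes are given relative to the median gene, by scaling with the median ratio of the libraries. Relative to the median gene, 2 members were higher, 4 lower and 2 not called among the 8 tested in WT, where 37.8% of all 12813 tested genes were called higher and 36.7% lower, or 74.5% in all. By library totals, 1 was higher, 6 were lower and 1 was not called, with 20.6% of all genes called higher and 61.1% lower, or 81.7% in all. In the cKO libraries, 2 were higher, 4 lower and 2 not called relative to the median gene (39.5% of 12666 genes higher, 37.7% lower, 77.3% in all), and by totals 2 were higher and 6 lower (23.8%, 58.9% and 82.7%). Calls required a 1.2-fold difference or more and an adjusted p below 0.05 by exact binomial test of the read numbers, which compares 2 libraries and not the conditions. By totals the median log2 difference of the tested members was -1.08 in WT and -1.09 in cKO, beside the medians of all genes given above.

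Nfatc1 was 2.16-fold lower in WT LPS than in WT NT relative to the median gene (95% limits 1.90 to 2.46; 3.52-fold by totals), and 1.58-fold lower in cKO LPS than in cKO NT (1.40 to 1.79). RANK was 1.90-fold lower in WT (1.77 to 2.04). In cKO it was 1.19-fold lower relative to the median gene (1.11 to 1.28), which did not pass the fold threshold, and 1.89-fold lower by totals, which did. The integrin chain Itgb3 was 2.07-fold lower in WT (1.55 to 2.79) and 2.65-fold lower in cKO (2.01 to 3.54). All limits cover counting error only, since reads without molecular identifiers are not independent molecules and there was no replicate.

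Dcstamp was 7.79-fold lower in WT LPS (3.81 to 18.5) and 3.10-fold lower in cKO LPS (2.15 to 4.57), relative to the median gene. Ocstamp was 25.5-fold higher in WT LPS (11.95 to 65.02) and 32.1-fold higher in cKO LPS (8.34 to 273), the latter against only 2 counts in cKO NT. The fusion genes thus moved in opposite directions under both scalings and in both genotypes' libraries.

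Mitf was the transcription factor that did not follow Nfatc1. Relative to the median gene it was 1.62-fold higher in WT LPS (1.52 to 1.72), while by library totals the ratio was 0.9901 (0.929 to 1.06) and was not called, so its direction depends on the scaling. In cKO it was higher under both scalings, by 3.17-fold (2.96 to 3.39) and 2.003-fold. Gpnmb was not called with LPS relative to the median gene, with ratios of 1.07 in WT (1.06 to 1.07) and 0.989 in cKO (0.985 to 0.994), although by totals it was called lower, at 0.654 and 0.625. Spp1 had a ratio of 0.977 in WT (0.965 to 0.9896), which was not called, and was 1.81-fold lower in cKO (1.78 to 1.84). By totals the WT log2 differences of Gpnmb and Spp1 were -0.61 and -0.74, near the shift of 0.71 between the scalings.

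**Figure D2:**
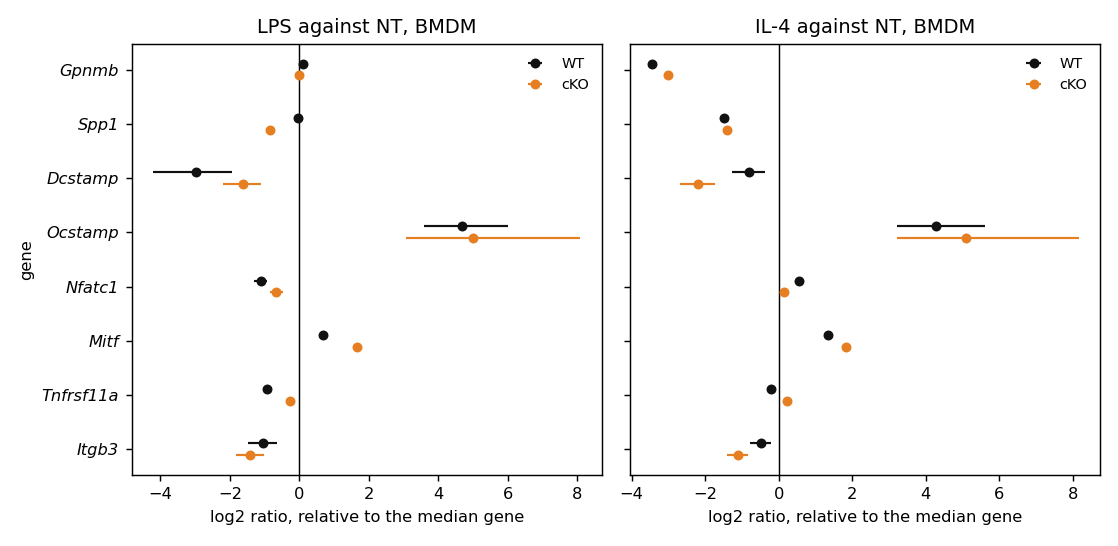
Log2 ratio of each of 8 members, LPS or IL-4 over NT, relative to the median gene, in WT (black) and cKO (orange) BMDM libraries, with 95% Clopper-Pearson limits; Oscar is left out. Under LPS, Dcstamp lies below 0 and Ocstamp above it, and under IL-4 Gpnmb is lowest, at -3.44 in WT; by library totals the LPS points move down by 0.71 in WT and 0.66 in cKO, which puts WT Gpnmb and WT Mitf below 0, where cKO Gpnmb, at -0.02, already lies.

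The rest of the osteoclast pathway did not move as 1 block with LPS. Of all genes, 37.8% were called higher and 36.7% lower in WT relative to the median gene, and 39.5% and 37.7% in cKO. By totals 20.6% were higher and 61.1% lower in WT, and 23.8% and 58.9% in cKO. Of 13 genes of the resorption machinery, 9 were higher, 2 lower and 2 not called in WT relative to the median gene, with a list median of 0.76 on the log2 scale, and 7, 2 and 4 in cKO, with 0.38. By totals 6 were higher and 5 lower in WT (median 0.06), and 5 were higher and 6 lower in cKO (median -0.14), so the balance of this list depends on the scaling. Car2, the carbonic anhydrase that supplies acid, went from 0.801 to 44.7 CPM in WT and from 0.354 to 44.6 CPM in cKO. Mmp14, a membrane protease, went from 52.3 to 616 CPM and from 37.0 to 770 CPM. Against this, Atp6v0d2, the proton pump subunit of osteoclasts, fell from 209 to 43.7 CPM in WT and from 171 to 40.2 CPM in cKO. Acp5, the acid phosphatase TRAP, rose from 38.3 to 97.6 CPM in WT and from 33.5 to 83.9 CPM in cKO.

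Of 10 transcription factors, 5 were higher, 3 lower and 2 not called in WT relative to the median gene, and 6, 3 and 1 in cKO, while by totals 4 were higher and 5 lower in WT and 4 and 4 in cKO. These and the next counts stand beside 37.8% of all genes higher and 36.7% lower in WT relative to the median gene. In cKO the shares were 39.5% and 37.7%, and by totals 61.1% of all genes were lower in WT and 58.9% in cKO. Jdp2, an AP-1 family factor, went from 10.0 to 167 CPM in WT and from 13.5 to 163 CPM in cKO, while Fos, the AP-1 factor upstream of NFATc1, went from 154 to 38.9 and from 131 to 50.5 CPM. Of 10 tested fusion and adhesion genes, 3 were higher and 7 lower in WT, with a median of -0.62, and 3 were higher, 4 lower and 3 not called in cKO, with a median of 0.04, while by totals 3 were higher and 7 lower in both. Among them were the kinase Src, from 8.59 to 60.1 CPM, and the tetraspanin Cd9, from 462 to 56.9 CPM. Calcr, the calcitonin receptor of mature osteoclasts and also on that list, had at most 3 counts in any BMDM library. Of 11 tested genes of RANK and ITAM signalling, 3 were higher, 2 lower and 6 not called in WT and in cKO relative to the median gene. By totals 2 were higher and 7 lower in WT and 3 and 7 in cKO. Those lower lie near the 61.1% and 58.9% of all genes called lower by totals. Trem2, an ITAM-linked receptor, fell from 724 to 169 CPM in WT and from 1112 to 146 CPM in cKO, and the ITAM adaptor Fcer1g rose from 573 to 1455 CPM in WT and from 774 to 1228 CPM in cKO. Among 4 repressors of osteoclast differentiation, 3 were higher and 1 lower in WT and in cKO relative to the median gene, but by totals 1 was higher and 2 lower in WT and 2 and 1 in cKO, with Irf8 at 190 and 359 CPM in WT NT and WT LPS.

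With IL-4, both abundant products fell, and Mitf and Ocstamp rose, in both genotypes' libraries. Gpnmb was 10.9-fold lower in WT IL-4 than in WT NT relative to the median gene (95% limits 10.78 to 10.96; 9.69-fold by totals), and 8.01-fold lower in cKO (7.95 to 8.08). Spp1 was 2.83-fold lower in WT (2.79 to 2.87) and 2.67-fold lower in cKO (2.64 to 2.71). Mitf rose instead, by 2.53-fold in WT (2.41 to 2.67) and 3.54-fold in cKO (3.33 to 3.76). Ocstamp rose by 19.4-fold in WT (9.21 to 49.0) and by 34.2-fold in cKO (9.20 to 287), from 7 and 2 counts.

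Of the 8 members tested, 3 were higher, 4 lower and 1 not called in WT, where 29% of all 13090 tested genes were called higher and 29.4% lower relative to the median gene, 58.3% in all. By library totals the counts were the same, with 38.6% of genes higher and 21.7% lower, 60.3% in all. In cKO, 2 were higher, 4 lower and 2 not called relative to the median gene (34.2% of 12966 genes higher, 32.9% lower, 67.2% in all), and 4 were higher and 4 lower by totals (42.2%, 24.8% and 67%). The members that depend on the scaling in cKO were Nfatc1, with a ratio of 1.10 relative to the median gene (1.01 to 1.203) and 1.25 by totals, and Tnfrsf11a, with 1.17 (1.11 to 1.24) and 1.33. By totals the median log2 difference of the members was -0.16 in WT and -0.25 in cKO, beside 0.15 and 0.17 for all genes.

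RANK itself was not called in WT, at a ratio of 0.872 relative to the median gene (0.830 to 0.916) and 0.978 by totals. Nfatc1 was 1.45-fold higher in WT IL-4 (1.35 to 1.57). Dcstamp was 1.76-fold lower in WT (1.29 to 2.40) and 4.56-fold lower in cKO (3.30 to 6.40), and Itgb3 was 1.41-fold lower in WT (1.15 to 1.72) and 2.16-fold lower in cKO (1.77 to 2.65). The transcription factors and the products thus went in opposite directions in WT, Mitf and Nfatc1 higher and Gpnmb and Spp1 lower. The neutrophil marker sum, 382 and 514 CPM in these libraries against at most 2.35 CPM in NT, moved with this comparison. The dendritic cell markers went from 1.64 to 5.60 CPM in WT and from 0.797 to 6.28 CPM in cKO, with 2 higher and 1 lower of 4 tested in WT and 4 higher and none lower of 5 in cKO relative to the median gene, and by totals 2 of 4 and 5 of 5 higher and none lower. The osteoblast and stromal markers went from 5.04 to 11.5 and from 5.66 to 9.19 CPM, with 2 of 3 and 1 of 1 tested higher, and 4 of the 7 were at 0 in each library. The part of these markers in the result was not tested. The macrophage markers summed to 9443 and 9175 CPM in the IL-4 libraries and to 7103 and 7014 CPM in the NT libraries. As these are bulk libraries, fewer cells of a type and less RNA per cell cannot be told apart.

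LPS and IL-4 were each compared with the same NT libraries, so their ratios share those values. Side by side and relative to the median gene, the WT ratios for LPS and IL-4 were 1.07 and 0.0920 for Gpnmb, 0.977 and 0.353 for Spp1, 0.463 and 1.45 for Nfatc1, and 1.62 and 2.53 for Mitf. They were 0.527 and 0.872 for Tnfrsf11a, 0.484 and 0.711 for Itgb3, 0.128 and 0.569 for Dcstamp, and 25.5 and 19.4 for Ocstamp. Nfatc1 was called lower with LPS and higher with IL-4, while the related Dcstamp and Ocstamp kept their opposite directions under both treatments.

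Most transcription factors of the wider pathway rose with IL-4. Of 10, 9 were higher, none lower and 1 not called in WT and likewise in cKO, relative to the median gene, where 29% and 34.2% of all genes were called higher. By totals the list medians were 1.34 and 1.24 on the log2 scale, beside 0.15 and 0.17 for all genes. Tfec, of the MITF family, went from 13.5 to 86.3 CPM in WT and from 14.8 to 98.2 CPM in cKO, and Relb, of the NF-κB family, from 18.4 to 86.2 and from 24.5 to 99.4 CPM. The resorption genes split, with 3 of 13 higher, 5 lower and 5 not called in WT and 7, 5 and 1 in cKO relative to the median gene, the list medians being -0.10 and 0.36. By totals 3 were higher and 5 lower in WT, and 8 and 4 in cKO. Of all genes, 29% were called higher and 29.4% lower in WT relative to the median gene, and 34.2% and 32.9% in cKO. By totals 38.6% were higher and 21.7% lower in WT, and 42.2% and 24.8% in cKO. Ctsk, cathepsin K, the main collagen-degrading protease of osteoclasts, fell from 20.7 to 1.30 CPM in WT and from 102 to 13.6 CPM in cKO, and Atp6v0d2 fell from 209 to 71.1 and from 171 to 55.4 CPM. Mmp14 rose from 52.3 to 278 CPM in WT and from 37.0 to 565 CPM in cKO. Of the 10 tested fusion and adhesion genes, 4 were higher and 4 lower in WT and 5 and 4 in cKO relative to the median gene, against 6 and 3 and 5 and 3 by totals, and Itgav, the αv chain that pairs with Itgb3, rose from 129 to 371 CPM in WT and from 63.3 to 370 CPM in cKO while Itgb3 fell.

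Between the libraries labelled cKO and WT, no member had the same called direction in NT, LPS and IL-4, and none reached a 2-fold change on the log2(CPM + 1) scale, which understates the change of genes with few reads. Of all tested genes, 3.83% in NT, 0.904% in LPS and 1.97% in IL-4 did. In NT, 3 of the 7 tested members were higher, 2 lower and 2 not called, where 47.6% of all 12463 tested genes were called, 21.7% higher and 25.9% lower. Of the 6 macrophage markers, 1 was higher and 4 were lower in the cKO library, with sums of 7103 CPM in WT and 7014 CPM in cKO, and their part was not tested. Dcstamp was 1.84-fold higher in the cKO library (95% limits 1.44 to 2.37), Itgb3 was 1.39-fold higher (1.16 to 1.67) and Spp1 was 1.25-fold higher (1.24 to 1.26). Mitf was 1.34-fold lower (1.24 to 1.43) and Tnfrsf11a 1.31-fold lower (1.24 to 1.39). Gpnmb, at a ratio of 0.928, and Nfatc1, at 0.898, were not called.

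After LPS, 4 of the 8 tested members were higher in the cKO library, 2 lower and 2 not called, and 25.9% of all 12386 tested genes were called, 17.1% higher and 8.76% lower. Dendritic cell markers, at 15.7 CPM in WT and 20.9 CPM in cKO, moved with it, with 2 of 4 tested higher and none lower, as did 2 of the 6 macrophage markers, with none lower, and their part was not tested. Mitf was 1.52-fold higher (1.43 to 1.61), Nfatc1 1.26-fold higher (1.08 to 1.48) and Tnfrsf11a 1.25-fold higher (1.15 to 1.37), so the receptor and both factors were higher together. Dcstamp was 4.78-fold higher on 36 against 8 counts (2.19 to 11.9). Spp1 was 1.37-fold lower (1.35 to 1.39) and Ocstamp 2.33-fold lower (1.61 to 3.42). Gpnmb had a ratio of 0.887 and Itgb3 of 1.11 (0.775 to 1.60), and neither was called.

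After IL-4, 2 of the 8 tested members were higher, 2 lower and 4 not called, and 24.2% of all 13245 tested genes were called, 13.8% higher and 10.5% lower. The neutrophil markers, at 382 CPM in WT and 514 CPM in cKO, moved with it, 5 of 7 tested being higher and none lower. Of the dendritic cell markers 2 of 5 tested were higher and none lower, and of the macrophage markers 1 of 6 was higher and 2 lower. The part of all of these in the members' or the resorption genes' differences was not tested. The products were higher in the cKO library, Spp1 by 1.34-fold (1.32 to 1.36) and Gpnmb by 1.28-fold (1.26 to 1.29). Nfatc1 was 1.45-fold lower (1.35 to 1.56) and Ocstamp 1.69-fold lower (1.30 to 2.21). Mitf, RANK, Dcstamp and Itgb3 were not called, at ratios of 1.06, 1.04, 0.719 and 0.915. Ocstamp had fewer counts in the cKO library in all 3 conditions, but in NT, at 7 and 2 counts, the limits of the ratio ran from 0.0336 to 1.74. The median log2 difference of the tested members was -0.11 in NT, 0.21 in LPS and -0.03 in IL-4, beside -0.01, 0.03 and 0.01 for all genes. With the 6 libraries paired by treatment in 1 edgeR quasi-likelihood fit, chosen after seeing the data, 0 of the 8 tested members and 0 of all 13074 genes passed an adjusted p of 0.05. At an unadjusted p of 0.05, 403 of the 13074 genes passed in that fit. Ocstamp was among them as the 1 member, at a log2 difference of -1.06 and an adjusted p of 0.9994.

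**Figure D3:**
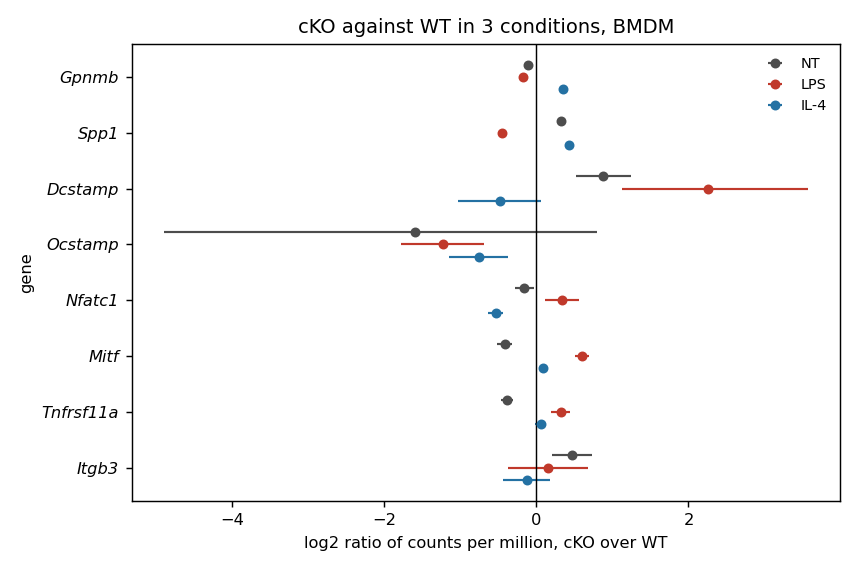
Log2 ratio of CPM, cKO over WT, for 8 members in NT (grey), LPS (red) and IL-4 (blue) BMDM libraries, with 95% Clopper-Pearson limits; Oscar is left out. Mitf and Tnfrsf11a lie below 0 in NT and above 0 in LPS, and Spp1 lies below 0 in LPS alone.

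Of the wider pathway, Ctsk stood out between the genotypes' libraries. It was at 20.7 and 102 CPM in WT and cKO NT, 30.8 and 64.2 CPM after LPS and 1.30 and 13.6 CPM after IL-4, which is 4.92-fold (95% limits 4.48 to 5.42), 2.08-fold (1.91 to 2.28) and 10.5-fold (7.44 to 15.1) higher in the cKO library. The resorption list as a whole had 1 of 13 genes higher and 8 lower without treatment, where 21.7% of all genes were higher and 25.9% lower. With LPS 2 were higher and 2 lower, beside 17.1% and 8.76% of all genes. With IL-4 7 were higher and 2 lower, beside 13.8% and 10.5% of all genes. The list medians were -0.31, -0.04 and 0.36 on the log2 scale, beside -0.01, 0.03 and 0.01 for all genes. Acp5 was called higher in IL-4, at 39.0 and 66.4 CPM, and not in NT or LPS, and Mmp9, a gelatinase, was lower in the cKO library in NT and LPS and higher in IL-4. Thus Ctsk was higher in the 3 cKO libraries while Atp6v0d2, at ratios of 0.818, 0.920 and 0.779, was lower in NT and IL-4. Tnfsf11, which encodes RANK ligand, was at 0 counts in all 6 BMDM libraries, and Tnfrsf11b, its decoy receptor, at no more than 2.

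In the Zmynd8 lines of Raw264.7 cells, RANK, Mitf and Gpnmb were higher both with D/E-A and with Zmynd8 KO than with WT Zmynd8. The deposited values are read counts divided by a factor for each library, so reads were recovered from them, and levels are given as RPM over the 12208 genes that all 4 tables list. Gpnmb was at 489 RPM with WT Zmynd8, 920 with D/E-A and 769 with Zmynd8 KO. Tnfrsf11a was at 91.2, 166 and 124, and Mitf at 53.3, 89.7 and 64.8 RPM in the same order. Nfatc1 was at 13.4, 21.9 and 15.1 RPM. Spp1 was at 481, 434 and 589, and Itgb3 at 119, 92.6 and 99.4 RPM. WT Zmynd8 thus had the lowest level of 4 of these 6 members and the highest of Itgb3.

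Of the 6 members tested, 4 were higher, 1 lower and 1 not called with D/E-A against WT Zmynd8, at a fold change of at least 1.2 in the deposited values plus 1, a rule that called 72.6% of all 12770 genes, 36.7% higher and 35.9% lower. Dcstamp, Ocstamp and Oscar are not in this table as used here. Every gene in it had at least 21 reads with WT Zmynd8, where these members had 12, 20 and 3. Genes with fewer reads are thus left out with D/E-A but not with Zmynd8 KO. Here and below, shares and medians of all genes in these 2 comparisons are therefore over different genes and cannot be set against each other. Gpnmb was 1.94-fold higher (95% limits 1.89 to 1.99), Tnfrsf11a 1.87-fold (1.76 to 1.99), Mitf 1.73-fold (1.60 to 1.88) and Nfatc1 1.69-fold (1.43 to 1.99). Itgb3 was 1.25-fold lower (1.17 to 1.33). With Zmynd8 KO against WT Zmynd8, 5 of 9 were higher, 2 lower and 2 not called, where 70.3% of all 21301 genes were called, 33.8% higher and 36.5% lower. Gpnmb was 1.66-fold higher (1.62 to 1.70), RANK 1.43-fold (1.34 to 1.52), Spp1 1.29-fold (1.26 to 1.33) and Mitf 1.28-fold (1.18 to 1.40). The other calls rest on few reads. Ocstamp had 20 and 28 reads with limits of 0.700 to 2.41, Oscar 3 and 1 reads, and Dcstamp 12 and 0, which makes it at least 4.35-fold lower when its 12 reads are set against a floor of 3, while the 95% limits of the ratio, which take in the counting error of the 12, reach down to 3.02-fold. By the exact binomial test of recovered reads, which called 61.3% and 30.6% of all genes, 5 members were called with D/E-A and 5 with Zmynd8 KO. The median log2 difference of the members was 0.77 with D/E-A and 0.35 with Zmynd8 KO, beside 0.02 and -0.03 for all genes.

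Markers of other cells moved with these differences. The macrophage markers summed to 2227 RPM with WT Zmynd8, 3737 with D/E-A and 2995 with Zmynd8 KO, and the neutrophil markers to 10556, 4479 and 7087. The dendritic cell markers summed to 159, 88.0 and 128 RPM and the B and T cell markers to 114, 122.7 and 90.3. With D/E-A, 6 of 6 macrophage markers were higher, 8 of 8 neutrophil markers lower, and 1 of 5 dendritic cell markers higher and 4 lower, while 1 of 6 B and T cell markers was higher and none lower. With Zmynd8 KO, 6 of 6 macrophage markers were higher, 5 of 8 neutrophil markers lower and none higher, 2 of 6 dendritic cell markers higher and 2 lower, and 1 of 6 B and T cell markers higher and 4 lower. The osteoblast and stromal markers had 1 higher and 2 lower of 3 with D/E-A and 4 higher and 1 lower of 6 with Zmynd8 KO. The part of these markers in the results was not tested. Rn18s-rs5, a sequence related to 18S ribosomal RNA, took 13.7% of the summed value with WT Zmynd8, 6.50% with D/E-A and 11.1% with Zmynd8 KO, and at most 0.509% in the p65 lines. Zmynd8 had 485 and 497 reads with WT Zmynd8 and D/E-A, while its value in the KO library was not a whole number of reads, which was so for 2 genes there, and was not used as a check of that line. D/E-A and Zmynd8 KO were both compared with the same WT Zmynd8 library.

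**Figure D4:**
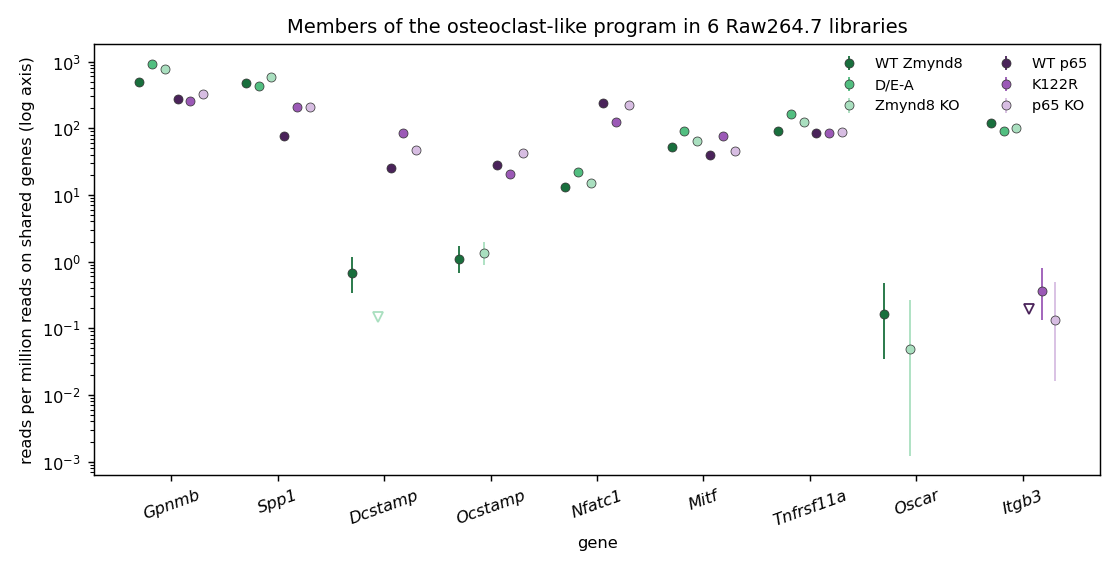
RPM on shared genes (log axis) of the 9 members in the 6 Raw264.7 libraries, with exact 95% Poisson limits; open triangles mark the level of 3 reads for a library with 0, and genes without a point are not listed in that table. Itgb3 lies near 100 in the Zmynd8 lines and below 1 in the p65 lines, and Nfatc1, and Dcstamp and Ocstamp where listed, lie higher in the p65 lines.

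In the p65 lines, Spp1 and Dcstamp were lowest with WT p65. Spp1 was at 75.8 RPM with WT p65, 212 with K122R and 212 with p65 KO. Dcstamp was at 25.3, 86.1 and 47.1, and Ocstamp at 28.1, 21.0 and 43.1 RPM in the same order. For Spp1 and Dcstamp both other libraries lay above WT p65, while Ocstamp was lower with K122R and higher with p65 KO. Nfatc1 was at 239, 124 and 224, and Mitf at 39.8, 76.8 and 45.5 RPM, so K122R had the least Nfatc1 and the most Mitf of the 3. Gpnmb, at 274, 254 and 329, and Tnfrsf11a, at 86.4, 83.7 and 87.7 RPM, varied less.

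Of 8 members tested with K122R against WT p65, 4 were higher, 2 lower and 2 not called, where 63.3% of all 19669 genes were called, 30.8% higher and 32.5% lower. Dcstamp was 3.77-fold higher (95% limits 3.37 to 4.23), Spp1 3.09-fold (2.89 to 3.30) and Mitf 2.13-fold (1.94 to 2.35), and Nfatc1 was 1.75-fold lower (1.66 to 1.85). Ocstamp was 1.21-fold lower (1.05 to 1.40). The fourth higher call was Itgb3, with 0 reads in WT p65 and 6 with K122R, or at least 2.08-fold when the 6 are set against the floor, while the 95% limits of the ratio reach down to 1.22-fold. Gpnmb and Tnfrsf11a were not called, and their log2 differences, 0.04 and 0.10, turned to -0.11 and -0.05 when scaled by read totals. With p65 KO against WT p65, 5 of 8 were higher and 3 not called, where 51.9% of all 19879 genes were called, 26.3% higher and 25.7% lower. Spp1 was 2.79-fold higher (2.61 to 2.99), Dcstamp 1.86-fold (1.64 to 2.11), Ocstamp 1.53-fold (1.36 to 1.74) and Gpnmb 1.202-fold (1.15 to 1.25). The remaining call was Itgb3, at 0 and 2 reads, for which no fold is given. Rela itself had 1601 reads with WT p65, 5850 with K122R and 765 with p65 KO, and both comparisons share the WT p65 library. Zmynd8 was at 118.9 RPM with WT p65, 65.4 with K122R and 109.5 with p65 KO, and its part in the results was not tested. The median log2 difference of the members was 0.60 with K122R and 0.44 with p65 KO, beside 0.01 for all genes in each. Under the exact binomial test on the reads, 5 and 4 members were called, with 29.5% and 13.2% of all genes.

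Markers of other cells were also called in the p65 lines. The dendritic cell markers summed to 35.6 RPM with WT p65, 29.1 with K122R and 39.7 with p65 KO, with 1 of 4 tested higher and 1 lower with K122R, and 2 higher and 1 lower with p65 KO. Ccr7, a chemokine receptor of migrating dendritic cells, was the lower 1 in both, at log2 differences of -2.26 and -0.39. Of the 6 macrophage markers, 1 was higher and 2 lower with K122R and 1 higher and 1 lower with p65 KO, with sums of 1138, 1152 and 1272 RPM. The osteoblast and stromal markers, at 7.75, 7.33 and 11.3 RPM, had 2 of 4 lower and none higher with K122R and 3 of 5 higher and 2 lower with p65 KO. The neutrophil markers, and the B and T cell markers, had at most 5 reads in all in any of the 3 libraries. The part of these markers in the results was not tested.

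**Figure D5:**
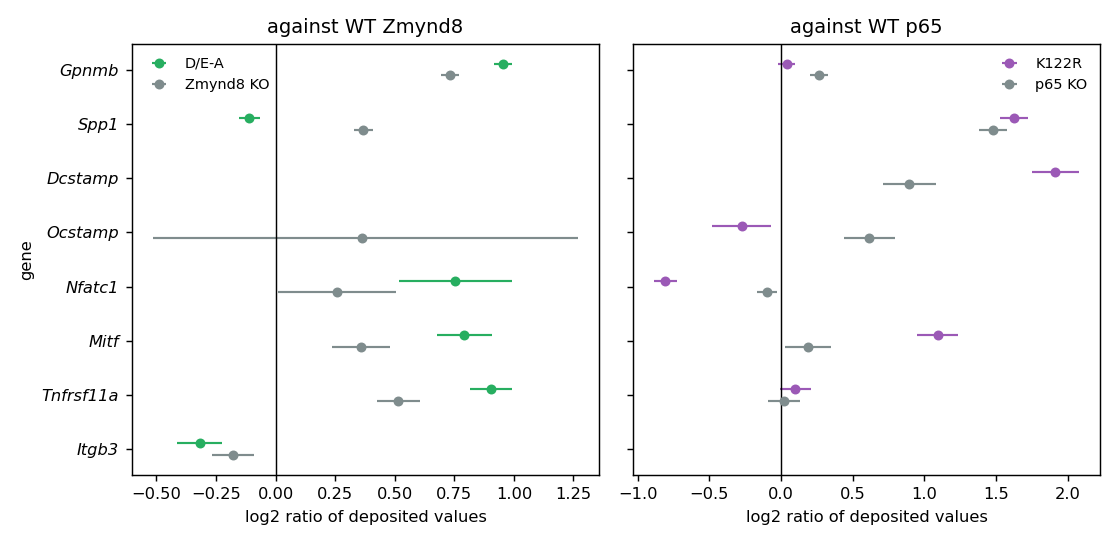
Log2 ratio of deposited values for the D/E-A library and the Zmynd8 KO library, each over WT Zmynd8 (left), and for K122R and p65 KO against WT p65 (right), with 95% Clopper-Pearson limits on the recovered reads; members with 0 reads in a library, not listed, or Oscar have no point. RANK, Mitf and Gpnmb lie above 0 in both comparisons on the left, and Spp1 and Dcstamp in both on the right, whereas Mitf and Nfatc1 part with K122R.

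Itgb3, Nfatc1, Gpnmb, Spp1 and Tnfrsf11a lay in separate ranges in the 2 sets of lines, while Mitf overlapped. So did Dcstamp and Ocstamp where listed, which for the Zmynd8 lines leaves out D/E-A. In the Zmynd8 lines Gpnmb lay between 489 and 920 RPM, Spp1 between 434 and 589 and Tnfrsf11a between 91.2 and 166. In the p65 lines they lay between 254 and 329, 75.8 and 212, and 83.7 and 87.7 RPM. How many of all genes separate in this way was not counted. Itgb3 had 2142, 1639 and 2055 reads in the Zmynd8 lines and 0, 6 and 2 reads in the p65 lines, where 0 allows up to 0.195 RPM. Dcstamp had 12 reads with WT Zmynd8 and 0 with Zmynd8 KO, against 388, 1408 and 698 in the p65 lines, and Ocstamp 20 and 28 against 431, 343 and 639. Nfatc1 lay between 13.4 and 21.9 RPM in the Zmynd8 lines and between 124 and 239 in the p65 lines. The fusion genes and Nfatc1 were thus found with little Itgb3 in the p65 lines, and Itgb3 with little Dcstamp and Ocstamp in the WT Zmynd8 and Zmynd8 KO libraries. These values come from separately normalized tables and were not tested.

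The wider lists in Raw264.7 cells are given by counts at the same fold of 1.2. Of the 13 resorption genes, 5 were higher and 4 lower with D/E-A, 6 and 3 with Zmynd8 KO, 9 and 1 with K122R, and 4 and 1 with p65 KO, where 72.6%, 70.3%, 63.3% and 51.9% of all genes were called. Atp6v0d2 was at 57 reads with WT Zmynd8, 71 with D/E-A and 98 with Zmynd8 KO, and at 7 reads with WT p65, 28 with K122R and 37 with p65 KO, with limits of the D/E-A ratio from 0.908 to 1.88. Acp5 had 209 reads with WT p65, 509 with K122R and 279 with p65 KO, and Ctsk had between 5 and 10 reads in the p65 lines. Among the transcription factors, Prdm1, a repressor that acts on the brakes of osteoclast differentiation, was lower with K122R and with p65 KO, by a log2 difference of -2.11 and -1.22. The transcription factors had 5 of 10 tested higher and 1 lower with D/E-A, 6 of 10 and none with Zmynd8 KO, 4 of 9 and 2 with K122R, and 1 of 9 and 1 with p65 KO. The RANK and ITAM signalling genes had 6 of 10 higher and 3 lower, 5 of 11 and none, 2 of 11 and 1, and 3 of 11 and 2 in the same order. The fusion and adhesion genes other than members had 7 of 10 higher and 1 lower, 6 of 12 and 1, 6 of 11 and 2, and 4 of 11 and 1.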

How the data were processed

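RNA-seq of 12 of the 47 samples was used, with 1 library per condition, and the other 35 samples were not analysed here. For BMDMs, the deposited tables hold estimated counts and TPM per gene made by the authors. For Raw264.7 cells, the deposited values are a signal, gene counts divided by a size factor in each of 4 tables that the authors normalized separately. Reads were mapped to mm10 with TopHat per the Methods, and the submitters' processing notes also name Bowtie 0.12.2 and CASAVA 1.4. Columns of the authors' own fold changes and p-values were not used, nor were 2 columns of per-sample values that the labels do not name. Entries that are no gene (431, 431 and 2 in the BMDM tables) were left out.

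Counts were rounded and scaled to the library total (CPM). Those averaging 10 counts or more were compared on log2(CPM + 1), and calls required a 1.2-fold difference or more and a Benjamini-Hochberg adjusted p below 0.05 by two-sided exact binomial test, which compares libraries only. Raw264.7 values plus 1 were compared within a table, at a mean value of at least 1, by the fold alone. Whole reads were recovered for at least 99.9916% of genes (tolerance 0.01 reads). Ratios carry 95% Clopper-Pearson limits and levels exact Poisson limits, and a count of 0 allows up to 3 counts. BMDM totals of 22597408 to 28386612 set their precision.

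The members and lists were chosen with earlier results of these data known. The rule for named genes took the 9 members, the 2 highest and 2 lowest called genes of a list averaging 100 counts or more (Raw264.7, a value of at least 10), Acp5, Ctsk, Mmp9, Atp6v0d2, Calcr, Tnfsf11 and Tnfrsf11b, and for each member averaging 100 counts or more the 3 genes most alike over 6 libraries. From these, a selection is printed, and 1 gene is not reported here. The dendritic cell markers summed to between 0.797 and 20.9 CPM in BMDMs, the B and T cell markers to between 0.177 and 0.427 and the osteoblast markers to between 1.61 and 11.5. Alternatives were scaling by the median ratio or TMM, a pseudocount of 0.1, no filter, a fold of 2, the fold alone and recovered reads. Scripts used Python 3.11.15, numpy 2.4.6, scipy 1.17.1, pandas 2.3.3, R 4.3.3 and edgeR 4.0.16 (TMM factors, and a quasi-likelihood fit of cKO against WT paired by treatment on genes averaging 10 counts or more, added after seeing the data) and were tested on simulated data.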

Additional observations from a re-analysis of the deposited data

Results flagged for a closer look

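Some members differed in opposite directions between the cKO and WT libraries of different conditions, and with 1 library a condition these differences of differences were not tested. For Spp1 the log2 difference, cKO minus WT, was 0.32 in NT and -0.46 in LPS, which are -0.78 apart, and 0.42 in IL-4, which is 0.88 above LPS. Mitf was at -0.41 in NT and 0.59 in LPS, 1.00 apart. Tnfrsf11a was at -0.39 in NT and 0.32 in LPS, 0.70 apart. Nfatc1 was at 0.31 in LPS and -0.53 in IL-4, which is -0.84 from LPS to IL-4.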

How the results depend on the processing

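At a fold of at least 2, the number of members called was 0 in each of the 3 comparisons of cKO with WT, 5 for LPS against NT in cKO (46% of all genes), 4 for IL-4 against NT in WT (16.2%) and 5 in cKO (21.1%), 0 for D/E-A (18.4%), 2 for Zmynd8 KO (25.6%) and 2 for p65 KO (15.8%). For LPS against NT in WT, scaling by the median ratio turned the log2 difference from below to above 0 for Gpnmb, at 0.093, and for Mitf, at 0.68, and TMM turned that of Mitf, at 0.56. Beside these 3 reversed values, 10 values of single members lost their call and 212 kept their direction and side of the threshold. Another 2, Gpnmb and Tnfrsf11a with K122R, changed sign by read totals, to -0.11 and -0.05, with no call under either setting, and 53 counts of calls stayed within 1.5 times of those given. Within a treatment each group had 1 library, so no library could be left out of a comparison and no replicate block could be fitted. Across treatments, cKO could be paired with WT, with 2 residual degrees of freedom. That edgeR quasi-likelihood fit, added after seeing the data, called 0 members and 0 of 13074 genes, with 403 genes at an unadjusted p under 0.05. Mixed replicates leave the spread between animals unknown, and members with few reads (Oscar, Ocstamp in NT, Dcstamp in the Zmynd8 lines and Itgb3 in the p65 lines) are limited by depth.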
